A study of Mus musculus with 20 samples.

Results

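Transcripts of 9 genes were followed across 20 keratinocyte libraries: Laptm4a, Rraga, Ykt6, Arpc3, Got2, Gatd3a, Csrnp1, Mmp24 and D7Ertd443e. They are 9 of the 25719 genes in the count table, and all 9 passed the filter on low counts, which kept 12424 genes. They were selected on their measured levels in these same libraries, as genes that were low in all 5 libraries of the systemic controls and in 1 systemic knockout library and high in the remaining 14. The differences that fixed this choice are therefore given below as a description, without a test.

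Keratinocytes were sorted by flow cytometry from ear and back skin of 20 mice, 5 in each of 4 groups. All mice carried floxed alleles of Cyp11b1 (Cyp11b1 L2/L2), the gene of the enzyme that completes corticosterone synthesis. The knockout mice (cKO) also carried K14-CreERTam, a tamoxifen-activated Cre recombinase under the promoter of keratin 14, which is active in the basal epidermis, and the controls were their Cre-negative littermates. Every mouse, controls included, received tamoxifen on 5 days and was sampled on day 6: the systemic groups by injection into the peritoneum (100 µl of 10 mg/ml), the topical groups on the skin (20 µl on the ear and 100 µl on the back, which had been shaved). The groups are called topical control, topical cKO, systemic control and systemic cKO, and libraries keep the number of their sample name, which runs to 7; values of a group are listed in the order of that number. Levels are CPM, counts scaled to a common sequencing depth, after TMM normalisation, an adjustment of library totals that limits the weight of a few abundant genes. Levels summed over lists of genes, and those of close relatives of the genes named above, are CPM on library totals without this adjustment.

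Several of these genes encode parts of machines that work at the lysosome and the membranes around it. Rraga is a Rag GTPase that brings the growth kinase complex mTORC1 to the lysosome when amino acids are plentiful, Laptm4a is a membrane protein of late endosomes and lysosomes, and Ykt6 is a SNARE that drives fusion between the endoplasmic reticulum and Golgi and between autophagosomes and lysosomes. Arpc3 is a subunit of the Arp2/3 complex, which nucleates branched actin, Got2 is the mitochondrial aspartate aminotransferase of the malate-aspartate shuttle, and Gatd3a is a mitochondrial protein of the DJ-1-like family. Csrnp1 is a nuclear regulator of transcription induced early after stimulation, and Mmp24 is a membrane-anchored matrix metalloproteinase.

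Library totals ran from 11.6 to 50.1 M counts, and log2 CPM of the 40 pairs of libraries within a group correlated at 0.948 to 0.991 across genes. The keratinocyte markers (Krt5, Krt14, Krt1, Krt10, Trp63 and Dsg3) summed to between 69930 and 104400 CPM in every library. The fibroblast list stayed at or below 32.0 CPM, the epidermal immune list at or below 30.6 CPM and the endothelial list at or below 8.11 CPM. Cyp11b1 itself had at most 6 counts in any library, with totals of 7 counts in topical cKO, 9 in topical control, 4 in systemic cKO and 2 in systemic control, so its deletion could not be read from these libraries. For all genes described here except D7Ertd443e, the library of systemic cKO 2 lay below the other 14 libraries, as the systemic controls did. For D7Ertd443e it lay in the range of those controls. For Mmp24 it was nearer to the lowest of the 14 than to the highest systemic control. A further measure set the same 6 libraries apart: 12 predicted genes resembling satellite repeats summed to 79.4 to 37290 CPM there and to 0.839 to 42.5 CPM in the other 14. Values with this sum as a covariate are given below, and the members' fold changes that include systemic cKO 2 are also given without it.

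Laptm4a showed the split plainly. Its 5 systemic control libraries were at 16.2, 13.4, 8.89, 12.9 and 13.1 CPM, while the topical controls were at 91.0, 87.4, 97.3, 97.5 and 96.1 CPM. The systemic cKO libraries were at 19.8 CPM in replicate 2 and at 118, 84.2, 88.4 and 55.9 CPM in replicates 4 to 7. The topical cKO libraries were at 89.0, 53.1, 88.9, 40.2 and 116 CPM. Systemic cKO 2 lay just above the highest systemic control and below all other libraries, and the remaining systemic cKO libraries overlapped both topical groups. The fitted level in systemic controls was 7.27-fold below that of topical controls (log2 fold change -2.86, SE 0.34), and systemic cKO was 5.68-fold above systemic control (log2 2.51, SE 0.34). Without systemic cKO 2 the latter log2 fold change was 2.75.

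Got2 divided the libraries in the same places. The systemic controls had 22.7, 19.6, 16.1, 17.1 and 16.01 CPM, against 88.3, 98.3, 87.7, 78.1 and 89.3 CPM in topical controls. The systemic cKO libraries had 22.7 CPM in replicate 2, then 94.6, 66.1, 60.3 and 52.3 CPM, and the topical cKO libraries 102, 69.0, 108, 78.8 and 110 CPM. Systemic cKO 2 exceeded the highest systemic control by 0.0015 CPM, so the 6 low libraries formed 1 cluster. Apart from replicate 2, the systemic cKO libraries reached a mean of 68.3 CPM ± 18.4 (SD, n = 4), below the 93.6 CPM ± 18.5 (SD, n = 5) of topical cKO, with overlapping ranges. Within the knockouts, the fitted log2 fold change of systemic against topical was -0.66 (SE 0.24), or -0.45 without systemic cKO 2.

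Ykt6 had 6.96, 7.54, 6.32, 4.58 and 5.35 CPM in systemic controls and 7.93 CPM in systemic cKO 2. The other systemic cKO libraries had 25.96, 27.4, 29.0 and 22.2 CPM. The topical controls had 24.8, 27.0, 18.4, 21.3 and 22.4 CPM, and the topical cKO libraries 20.5, 19.3, 21, 15.8 and 24.6 CPM. The 4 systemic cKO libraries other than replicate 2 thus lay within or just above the topical range, with a mean of 26.1 CPM ± 2.89 (SD, n = 4). Rraga, a gene of a single exon, ran from 6.72 to 7.92 CPM in systemic controls, stood at 10.5 CPM in systemic cKO 2 and ran from 17.5 to 31.0 CPM in the other 14 libraries. Arpc3 ran from 4.66 to 5.44 CPM in systemic controls, stood at 7.13 CPM in systemic cKO 2 and ran from 11.3 to 27.9 CPM elsewhere. For Rraga and Arpc3, systemic cKO 2 therefore sat between the 2 clusters, nearer to the systemic controls.

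The promoters of Ykt6, Rraga and Arpc3 are shown because they are the 3 of 9 members whose RefSeq window, from 250 bases before to 50 bases after the annotated start, holds the ETS site CCGGAAG (GRCm38.p6, written 5′ to 3′ along the gene's strand). Capitals mark every match to the 8 motifs searched on both strands; in these windows they are the ETS site, the GC box GGGCGG and the glucocorticoid half-site AGAACA.
Ykt6, chr11:5955508-5955807, plus strand: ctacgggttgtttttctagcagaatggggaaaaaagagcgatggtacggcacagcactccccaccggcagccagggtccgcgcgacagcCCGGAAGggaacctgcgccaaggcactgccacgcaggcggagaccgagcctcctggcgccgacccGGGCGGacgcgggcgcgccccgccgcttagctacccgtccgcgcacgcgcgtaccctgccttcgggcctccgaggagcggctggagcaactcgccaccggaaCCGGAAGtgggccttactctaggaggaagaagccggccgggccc
Rraga, chr4:86575423-86575722, plus strand: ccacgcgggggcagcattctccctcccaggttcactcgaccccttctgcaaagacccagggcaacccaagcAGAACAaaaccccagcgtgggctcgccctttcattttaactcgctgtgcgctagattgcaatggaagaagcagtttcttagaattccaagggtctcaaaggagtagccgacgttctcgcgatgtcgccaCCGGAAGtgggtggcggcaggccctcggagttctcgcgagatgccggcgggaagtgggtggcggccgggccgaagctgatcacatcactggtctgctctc
Arpc3, chr5:122391628-122391927, plus strand: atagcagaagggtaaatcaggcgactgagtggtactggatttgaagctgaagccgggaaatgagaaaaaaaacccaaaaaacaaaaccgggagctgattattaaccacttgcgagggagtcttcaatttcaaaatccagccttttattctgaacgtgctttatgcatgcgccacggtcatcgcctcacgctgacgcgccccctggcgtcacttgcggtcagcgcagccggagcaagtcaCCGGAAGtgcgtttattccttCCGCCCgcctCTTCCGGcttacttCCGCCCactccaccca
Of all 32851 RefSeq windows, 8.9% held CCGGAAG, beside 3 of the 12 windows of the members. The GC box was in 5 of the 12 windows (35.7% of all windows), the CCAAT box in 3 (37.4%) and the TATA box TATAAA in 2 (13.6%). The AP-1 site TGANTCA was in 2, of Csrnp1 and Laptm4a (7.8%), and AGAACA in 2, of Csrnp1 and Rraga (19%). For each motif these windows belonged to different members. The E-box CACGTG (7.2%) and the cAMP response element TGACGTCA (1.8%) were in none of the 12 windows of the 9 members. No motif was common to all members, and a match is a description of the letters only.

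Gatd3a and Csrnp1 had the widest separation between the 6 low libraries and the other 14. Gatd3a was at 1.40, 1.13, 0.790, 0.715 and 0.778 CPM in systemic controls, which corresponds to 10 to 32 counts, and at 1.23 CPM, or 14 counts, in systemic cKO 2. The other systemic cKO libraries were at 7.80, 6.57, 7.65 and 5.19 CPM, the topical controls at 8.27, 8.31, 6.01, 9.14 and 8.69 CPM, and the topical cKO libraries at 8.81, 7.55, 8.46, 9.98 and 8.45 CPM. Systemic cKO 2 lay inside the range of the systemic controls. The lowest of the 14 high libraries was 3.70 times the highest of the 6 low ones.

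Csrnp1 was at 16.9, 18.8, 23.4, 20.5 and 10.7 CPM in systemic controls and at 20.9 CPM in systemic cKO 2, again inside their range. The other systemic cKO libraries were at 132, 135, 120 and 148 CPM, with an SD of 11.6 CPM. The topical libraries spread more widely, from 71.3 to 159 CPM in controls and from 82.4 to 179 CPM in cKO. The gap between the clusters was 3.05-fold. In the fit, Csrnp1 in systemic controls was 6.31-fold below topical controls (log2 -2.66, SE 0.39) and Gatd3a was 8.44-fold below (log2 -3.08, SE 0.32).

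Mmp24 was a low transcript with a narrow gap. It ran from 0.583 to 1.15 CPM in systemic controls (13 to 24 counts), stood at 1.94 CPM in systemic cKO 2 and ran from 2.25 to 6.10 CPM in the other 14 libraries. The lowest of these was topical control 5, and the gap was 1.16-fold. Systemic cKO 2 thus lay nearer to that library than to the highest systemic control.

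D7Ertd443e, whose RefSeq synonym is FATS, did not have the pattern by which the genes were selected. Its systemic controls were at 3.64, 3.50, 2.30, 3.36 and 3.596 CPM, and its topical controls at 2.77, 3.58, 2.32, 4.21 and 2.55 CPM. The topical cKO libraries were the lowest, at 1.06, 1.33, 1.85, 1.10 and 1.92 CPM, and did not overlap their controls. The systemic cKO libraries were at 3.35 CPM in replicate 2 and at 8.61, 8.93, 6.70 and 5.82 CPM in replicates 4 to 7, the highest of the study. Systemic cKO 2 again lay in the range of the systemic controls, but for this gene those controls overlapped the topical ones, with a log2 fold change of 0.10 (SE 0.25). Systemic cKO was 4.81-fold above topical cKO (log2 2.26, SE 0.26; 2.43 without systemic cKO 2).

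**Figure D1:**
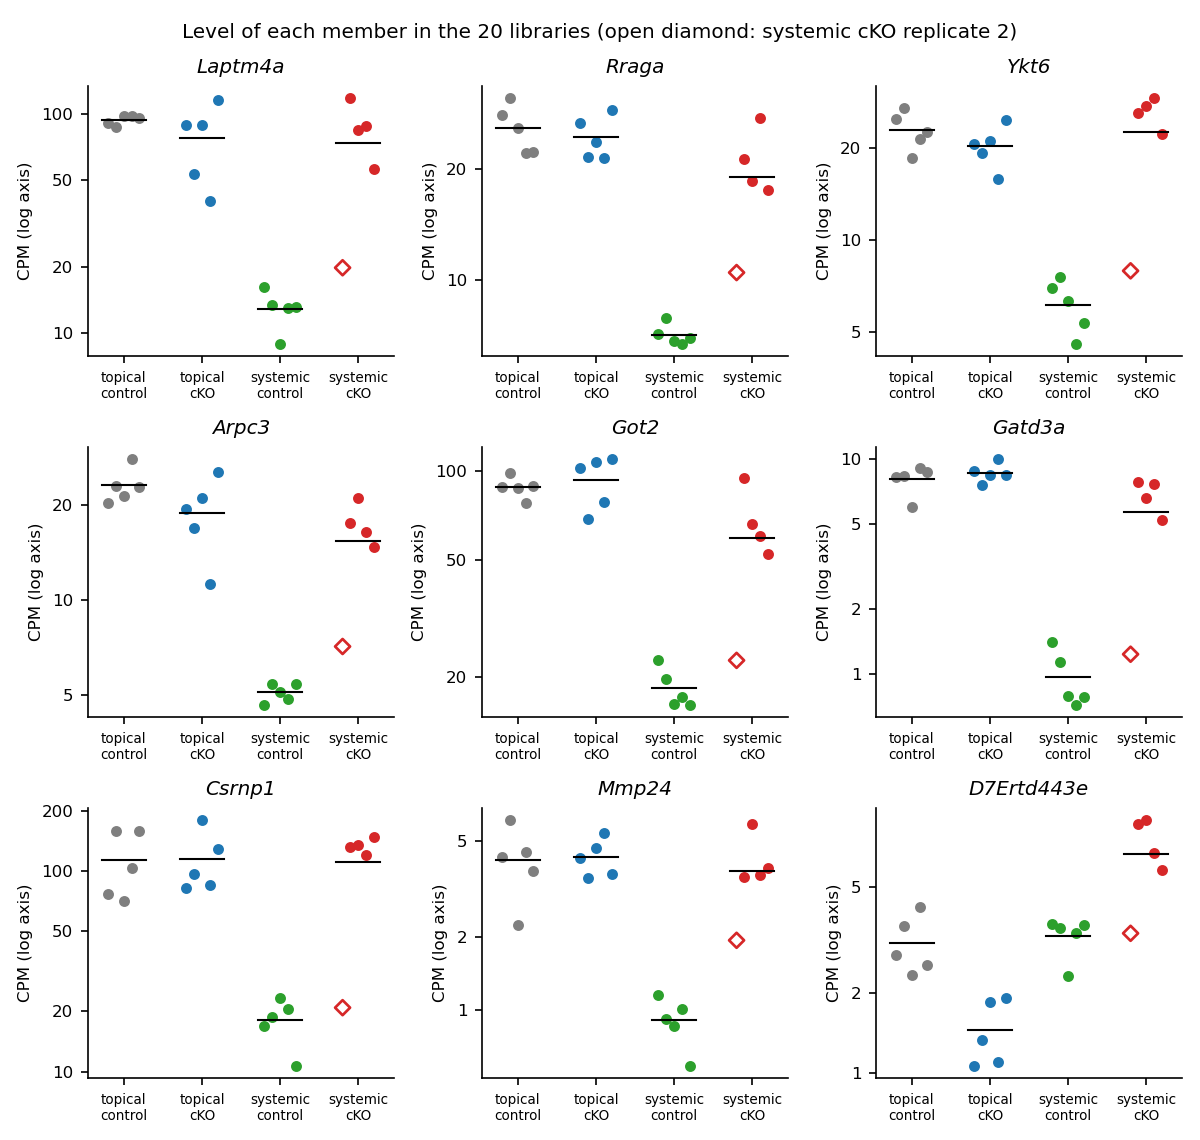
CPM of each member on a log axis in the 4 groups, 1 point per library, with the mean of 5 libraries as a bar and systemic cKO replicate 2 as an open diamond. In 8 panels the systemic controls and the diamond lie below all other points, and in the panel of D7Ertd443e they do not.

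Compared per kilobase of annotated exon, the level in topical controls was highest for Laptm4a at 52.9 CPM per kilobase ± 2.53 (SD, n = 5), then Csrnp1 at 32.7 ± 12.3, Got2 at 18.3 ± 1.49, Rraga at 15.9 ± 2.36, Arpc3 at 8.34 ± 1.05, Ykt6 at 7.63 ± 1.10, Gatd3a at 3.198 ± 0.48, Mmp24 at 0.893 ± 0.296 and D7Ertd443e at 0.517 ± 0.132. Neighbours within an SD of each other in this order were Arpc3 and Ykt6, and Got2 and Rraga differed by about the SD of Rraga. In systemic controls Laptm4a led with 7.28 ± 1.47, followed by Csrnp1 with 5.19 ± 1.37, Rraga with 4.41 ± 0.29 and Got2 with 3.796 ± 0.59, and Mmp24 was last with 0.192 ± 0.045. Rraga and Got2 thus changed places, by about the SD of Got2. The lengths used were all annotated exonic bases of a gene. These were 4824 for Got2 and 2762 for Arpc3, against 2530 and 899 in the longest coding transcript. For Rraga both were 1618. The order, and the exchange of Rraga and Got2, depend on this choice of length.

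Among the 12424 genes, 136 (1.09%) were lower in all 6 libraries than in any of the other 14, and 203 (1.63%) were higher in all 6. By the width of the gap among the 136, Gatd3a ranked 1 and Csrnp1 2, and Got2, Laptm4a, Ykt6, Rraga, Arpc3 and Mmp24 ranked 3, 5, 7, 18, 26 and 59. Since the rule asks for this pattern, these ranks describe the choice. The genes nearest to the rule without meeting it were Pdia3, whose lowest value in the 14 libraries was 319.6 CPM against 320.0 CPM in the 6, Fabp6 (0.538 against 0.539 CPM) and Ccdc71 (6.07 against 6.08 CPM), while the narrowest member inside it, Mmp24, had 2.25 against 1.94 CPM.

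**Figure D2:**
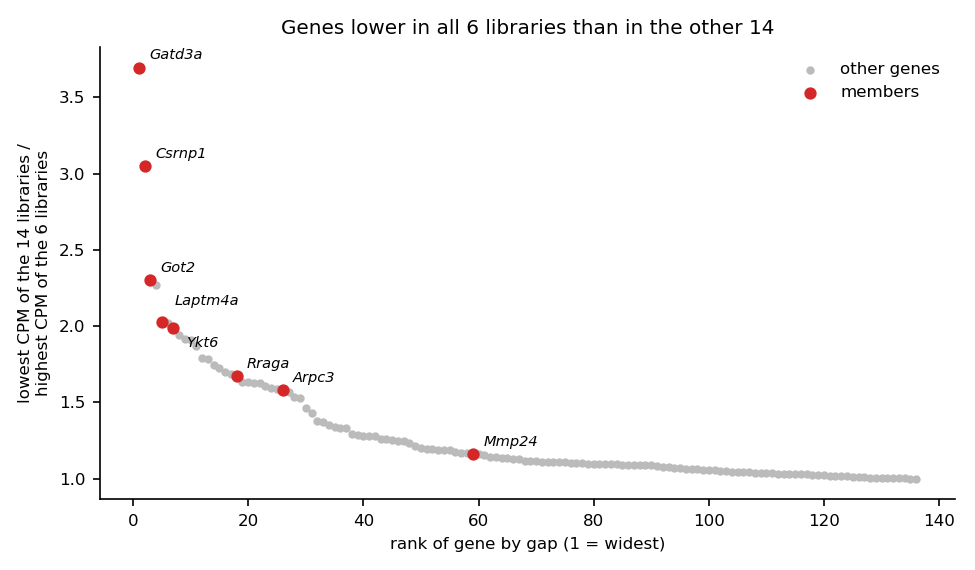
Lowest CPM in the 14 libraries divided by highest CPM in the 6 low libraries, for the 136 genes in which this ratio exceeds 1, ranked from the widest gap, with members in red. The 8 members with the pattern lie at ranks 1 to 59, with ratios from 3.70 for Gatd3a to 1.16 for Mmp24.

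The rule did not contrast cKO with control within the topical libraries, and this comparison was tested. The rule did ask for high values in all 10 of these libraries, which favours genes with small differences among them, so the count is not independent of the choice. By edgeR's quasi-likelihood test with Benjamini-Hochberg adjustment over all 12424 genes, 0 of 9 members passed an adjusted p of 0.05. Of all genes 0.129% did. By the same test 1 member had an unadjusted p below 0.05, beside 703 of all 12424 genes. The other 8 log2 fold changes lay between -0.30 for Arpc3 (SE 0.21, adjusted p = 0.988) and 0.10 for Gatd3a (SE 0.28, adjusted p = 0.997). The 95% intervals do not exclude moderate differences: that of Laptm4a ran from -0.95 to 0.40 on the log2 scale and that of Csrnp1 from -0.76 to 0.78. D7Ertd443e was the member with the small unadjusted p, at a log2 fold change of -1.13 (SE 0.26), or 2.19-fold lower in topical cKO, with all 5 cKO libraries below all 5 controls. Its adjusted p was 0.138 with edgeR and 0.0147 with the DESeq2 Wald test, which called it, and ran from 0.0147 to 0.887 over all settings tried. D7Ertd443e had been picked out earlier with values of these topical libraries in view, so this test is not independent of its selection.

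In the other comparisons, which share their control or knockout libraries with one another, the values follow from the selection. In systemic cKO against systemic control all 9 log2 fold changes were positive, from 1.04 for D7Ertd443e to 2.63 for Csrnp1 with a median of 1.88, where the median of all genes was -0.0045 and 1.89% of genes were called. In systemic against topical controls, the 8 members apart from D7Ertd443e ran from -3.08 to -1.85, and 18.3% of all genes were called. In systemic against topical cKO these 8 ran from -0.66 for Got2 to 0.16 for Ykt6, and 9.22% of all genes were called. In the interaction of genotype and route, the difference between the genotype effects of the routes, the 9 ran from 1.5 for Rraga to 2.78 for Laptm4a, and 0.25% of all genes were called. Without systemic cKO 2 the systemic genotype values were higher for all 9 members, from 1.20 for D7Ertd443e to 2.90 for Csrnp1, and the interaction values ran from 1.65 for Rraga to 3.03 for Laptm4a. Without it the 8 members' values for systemic against topical cKO ran from -0.45 for Got2 to 0.375 for Ykt6, and those of Laptm4a (from -0.078 to 0.163) and Csrnp1 (from -0.039 to 0.227) changed sign. In bulk RNA a smaller number of cells that express a gene and less RNA per cell cannot be told apart.

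**Figure D3:**
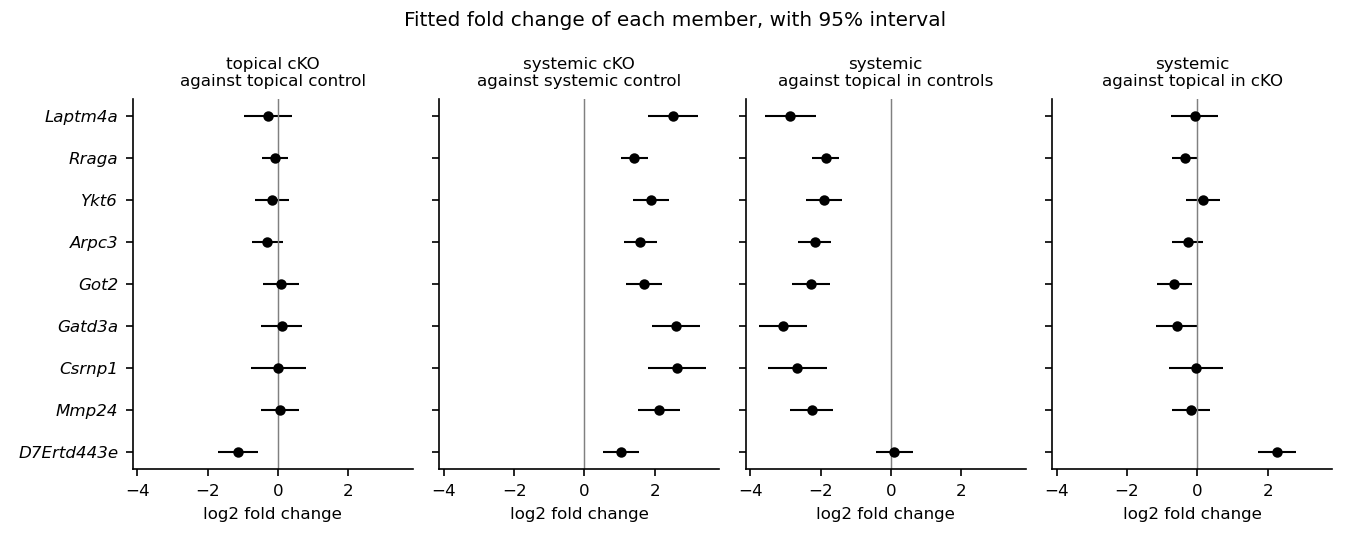
Fitted log2 fold change of each member (points) with its 95% interval (bars) in 4 comparisons. Intervals of 8 members span 0 between topical cKO and topical control, and 8 members lie below 0 between systemic and topical controls, D7Ertd443e being the exception in both.

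The satellite-like counts parted the same 6 libraries from the other 14. Within the 6 low libraries they differed far more than the members did: systemic control 1 had 79.4 CPM of them and systemic cKO 2 had 37290 CPM, while Laptm4a was at 16.2 and 19.8 CPM. Among the other 14, topical cKO 5 had the highest sum, 42.5 CPM, and also the lowest Laptm4a (40.2 CPM), Ykt6 (15.8 CPM), Rraga of the topical libraries (21.3 CPM) and Arpc3 (11.3 CPM), but not the lowest Got2 (78.8 CPM) or Gatd3a (9.98 CPM, the highest of all). With the log2 of the satellite-like sum added to the fit as a covariate, a setting chosen after seeing the data, the systemic genotype log2 fold changes were 1.41 for Laptm4a, 0.93 for Got2, 1.11 for Ykt6, 0.99 for Rraga, 1.05 for Arpc3, 1.46 for Gatd3a, 1.38 for Csrnp1, 1.69 for Mmp24 and 0.61 for D7Ertd443e, and 0 of all genes were called in that contrast. Between systemic and topical controls, 8 members ran with this covariate from -1.91 for Gatd3a to -1.07 for Ykt6, with -1.72 for Laptm4a, and D7Ertd443e was at 0.56. The interaction values ran from 0.73 for Got2 to 1.68 for D7Ertd443e. In these 3 contrasts all 9 members kept their sign. They moved by more than the replicate SD of log2(CPM + 1), pooled over the 4 groups. The added 1 CPM narrows that SD for genes of few CPM, such as Mmp24 and D7Ertd443e. All systemic controls had a higher sum than any of the 14 libraries, so the fit separates covariate and group poorly. Changed values and fewer calls in contrasts with systemic controls were to be expected from that overlap, and their cause was not tested. The share of counts from mitochondrial genes overlapped, at 1.87% to 6.42% in the 6 libraries and 2.45% to 7.49% in the 14. Genes of the sebaceous gland summed to 241 to 1845 CPM across the 6, against 887 to 3609 CPM across the 14, and their part in the members' levels was not tested.

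**Figure D4:**
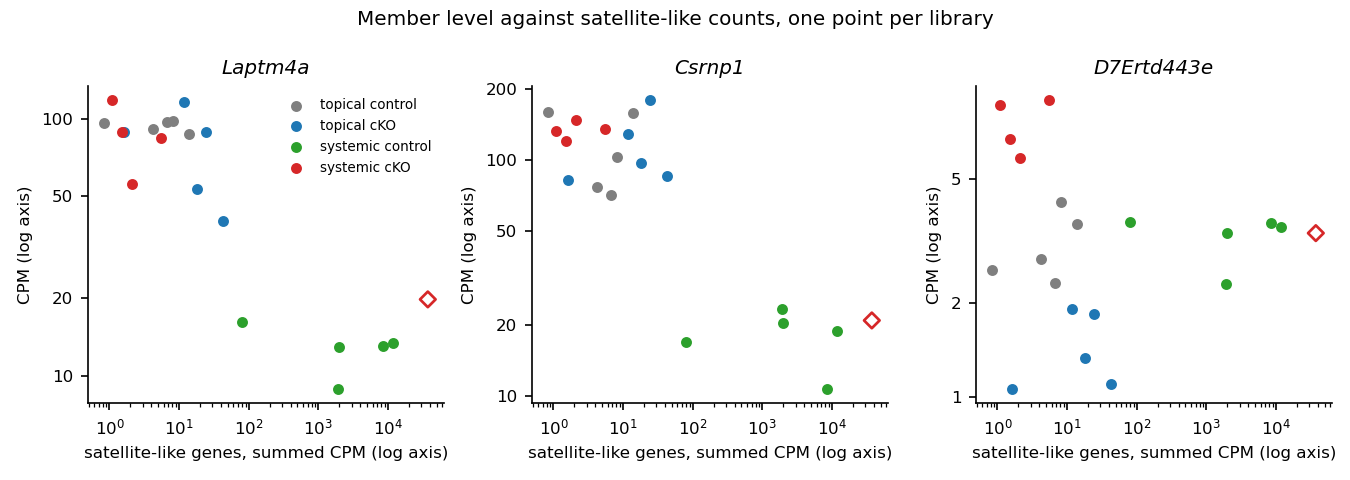
CPM of Laptm4a, Csrnp1 and D7Ertd443e against the summed CPM of 12 satellite-like predicted genes, both on log axes, 1 point per library, with systemic cKO replicate 2 as an open diamond. The systemic controls and the diamond lie at 79.4 CPM of satellite-like counts or more, and all other libraries at 42.5 CPM or less.

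Within the 10 topical libraries, which all lie on the high side of the rule, the members were compared in 36 pairs on log2(CPM + 1). Of the correlations 30 were positive, with a median Pearson r of 0.33 (range -0.29 to 0.92). Laptm4a and Arpc3 had r = 0.92 (permutation p = 8.3e-04, adjusted over 36 pairs 0.0299; Spearman rho 0.76, permutation p = 0.0149, adjusted 0.274). Without the 2 libraries farthest from the median of Laptm4a, r was 0.59, so the relation rests in part on those samples. Unadjusted, 8 pairs had p below 0.05 by Pearson's r, and by Spearman's rho 0 pairs passed after adjustment. Over all 20 libraries, each member other than D7Ertd443e correlated with the mean of the other members at 0.91 to 0.98, which the selection fixes, and D7Ertd443e at -0.01.

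Among all other genes, those most like the mean standardised profile of the members over the 20 libraries were Ociad1 (Pearson r = 0.97), Swi5 (0.97), Il6ra (0.96), Aldh2 (0.96), Rhoa (0.96), Trappc3 (0.95), Cant1 (0.95), Ywhag (0.95), U2af1 (0.95) and Kdelr1 (0.94). Rhoa, a GTPase that organises actin, ran from 96.2 to 153 CPM in the 6 low libraries, against 263 to 542 CPM elsewhere. Aldh2, the mitochondrial aldehyde dehydrogenase, ran from 37.4 to 57.0 and from 111 to 221 CPM. Trappc3, a subunit of a vesicle tethering complex, ran from 16.2 to 23.5 and from 31.5 to 57.5 CPM, and Kdelr1, a receptor that returns proteins to the endoplasmic reticulum, from 7.14 to 10.7 and from 16.9 to 27.8 CPM. All 4 were thus low in the same 6 libraries, with smaller gaps than Gatd3a or Csrnp1.

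Partners of the members in the same complexes and pathways were taken from 7 lists and a list of paralogues, 143 genes past the filter without the members. In topical cKO against topical control 0 of 143 passed with edgeR's quasi-likelihood test, beside 0.129% of all genes, and 0 with DESeq2. Of the 143, 13 had an unadjusted p below 0.05, beside 703 of all 12424 genes. In systemic cKO against systemic control 3 of 143 (2.1%) passed, close to the 1.89% of all genes, all higher: Laptm4b (log2 0.60, adjusted p = 0.0339), Cdh3 (P-cadherin, 0.92, adjusted p = 0.00492) and Fosb (an AP-1 subunit, 1.71, adjusted p = 0.00521). That count was 9 without systemic cKO 2, 0 in a fit of only the systemic libraries and 0 with the satellite-like covariate. In systemic against topical controls 37 (25.9%, beside 18.3% of all genes) passed, 14 higher and 23 lower. With that covariate 0 did, beside 118 of all genes. In systemic against topical cKO 21 (14.7%, beside 9.22% of all genes) passed, 11 higher and 10 lower, or 13 without topical cKO 2. In the interaction 0 of 143 passed with edgeR, 16 had an unadjusted p below 0.05, DESeq2 called 3, and 6 passed without systemic cKO 2, 3 without systemic control 1 and 1 without systemic control 3.

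By list, the differences between systemic and topical controls were smaller than those of the 8 members with the pattern, except for Rragd. The members were selected for low values in systemic controls and the listed genes were not. Larger values in the members therefore follow from the choice, here and for the genes below. Each count stands beside the 18.3% of all genes called. Of the Rag and mTORC1 genes 11 of 33 passed, 6 higher and 5 lower: Rragc, the partner of Rraga in the Rag heterodimer, fell by 0.91 on the log2 scale (adjusted p = 0.018) and the Ragulator subunit Lamtor3 fell by 0.65, whereas Nprl2, of the complex that restrains Rraga, rose by 0.60. Rragd fell by 1.94 (adjusted p = 0.0454), more than the value of -1.85 for Rraga, at mean levels of 0.530 CPM in topical controls and 0.112 CPM in systemic controls. Of the late endosome and lysosome membrane proteins 9 of 23 passed, 3 higher and 6 lower, with Cd63 down by 1.11 in log2 (adjusted p = 7.62e-04) and Npc1, the cholesterol exporter, up by 0.86. Of the SNAREs 5 of 26 passed: Stx5a rose by 0.79, and the 4 lower ones included Stx18, which fell by 0.44.

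For the Arp2/3 complex and its regulators 2 of 25 passed, both lower, and 1 of these, Arpc4, is a subunit like Arpc3: it fell by 0.81 on the log2 scale (adjusted p = 0.0119), beside a value of -2.17 for Arpc3. The other subunits measured past the filter were not called, with values of -0.58 for Arpc1b, -0.50 for Actr2, -0.30 for Actr3, -0.25 for Arpc2, -0.23 for Arpc5l, -0.02 for Arpc1a and 0.17 for Arpc5, and 20 of the 25 listed genes were negative. In the malate-aspartate shuttle list 6 of 15 passed, 1 higher and 5 lower: the aspartate-glutamate carriers Slc25a12 and Slc25a13 fell by 0.61 and 0.65, and Got1, the cytosolic counterpart of Got2, had a value of -0.30 (SE 0.15, adjusted p = 0.17) beside -2.27 for Got2. Of the genes listed with Gatd3a and Csrnp1 3 of 13 passed, all higher: the immediate early genes Egr1 (1.26), Atf3 (0.86) and Fos (0.83), opposite in sign to Csrnp1. Of the 13, 5 had negative values like Csrnp1 and did not pass, the lowest being Fosb at -0.79 (adjusted p = 0.0749). Of the 8 genes listed with Mmp24, 1 passed, Cdh3, which fell by 0.86. Across all lists 1 of 143 genes (0.699%) was lower in all 6 libraries than in the other 14, against 1.09% of all genes: Cdh3, which reached 28.3 CPM at most in the low libraries and 32.6 CPM at least in the others. The reverse held for 2 of the 143, Stx5a and Slc25a22, against 1.63% of all genes.

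**Figure D5:**
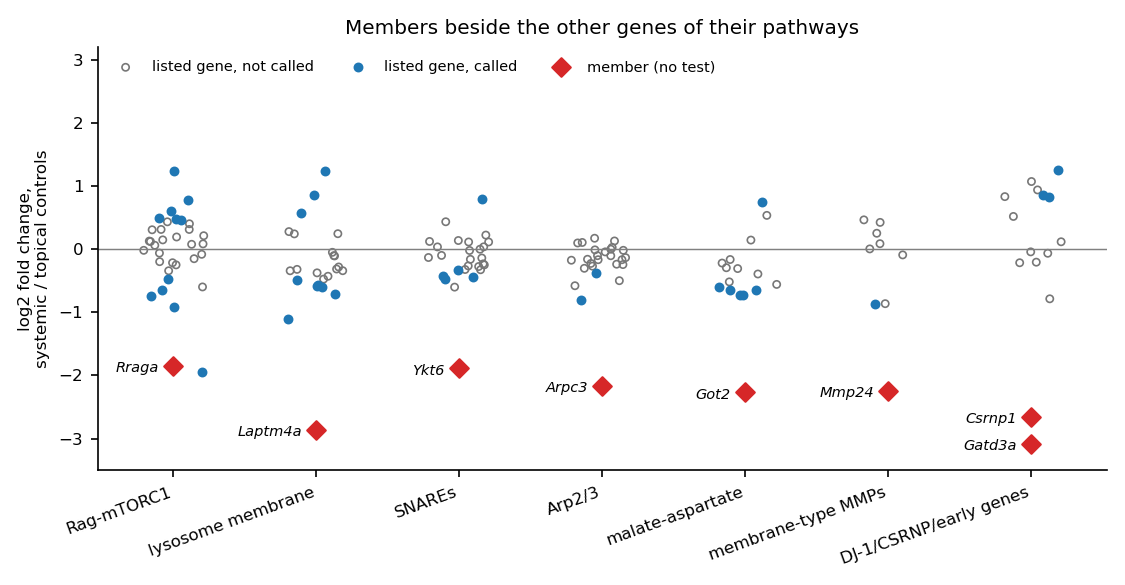
Log2 fold change between systemic and topical controls for the listed genes of 7 pathways (circles, filled where called by edgeR) and for the members (red diamonds, not tested). The listed genes lie between -1.94 (Rragd) and 1.26 (Egr1), and the 8 members shown between -3.08 (Gatd3a) and -1.85 (Rraga). D7Ertd443e, at 0.10, belongs to none of the 7 lists and is not drawn.

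Close relatives of the members gave ranges that overlapped between the 6 libraries and the 14, here in CPM on library totals without TMM normalisation. Got1 ran between 27.8 and 49.7 CPM across the 6, against 30.4 to 55.3 CPM across the 14, Laptm4b from 36.4 to 59.5 and from 28.7 to 75.2 CPM, and Sec22b, another SNARE of the same class as Ykt6, from 28.4 to 57.1 and from 28.8 to 56.3 CPM. Mmp14 ran from 20.1 to 49.3 and 25.03 to 73.5 CPM, Mmp15 from 6.11 to 15.6 and from 6.72 to 17.6 CPM, and Csrnp2 from 2.46 to 8.92 and from 1.97 to 13.7 CPM. Rragb, the near relative of Rraga, had at most 1 count in any library.

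The 9 genes lie on 9 chromosomes (GRCm38, GENCODE M21). Laptm4a is at chr12:8921664-8938742, Got2 at chr8:95864134-95888547, Ykt6 at chr11:5955693-5967780, Rraga at chr4:86575668-86577285, Arpc3 at chr5:122391878-122414184, Gatd3a (D10Jhu81e in that annotation) at chr10:78162066-78169782, Csrnp1 at chr9:119971163-119984658, D7Ertd443e at chr7:134265779-134385661 and Mmp24 at chr2:155775342-155818366. Their longest coding transcripts ranged from 899 bases for Arpc3 to 4306 for Mmp24, from the 4.7th to the 71.4th percentile of tested genes, and their GC content from the 41.6th to the 90.1st percentile, so neither length nor GC content was common to them.

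For 2 members a gene on the opposite strand had the same pattern. Gm45760 shares 434 exonic bases with Got2 (9.0% of its exonic bases) and ran from 2.99 to 6.06 CPM in the 6 low libraries, against 12.3 to 24.9 CPM elsewhere. BC029722 shares 637 bases with Mmp24 (13.6%) and ran from 0.948 to 2.07 CPM and from 3.96 to 10.3 CPM. The strand setting of the counting is not given in the sources used here, so reads of either pair cannot be told apart and all 4 levels are uncertain to that extent. Got2 also has near-identical copies in the genome annotation, Got2-ps1 (99.1% identical over 51.1% of the transcript) and Gm10874 (98.8% over 64.7%), which together cover 72.5% of its transcript and are not rows of the count table. No such copy was found for the other 8 members, beside 17.3% of tested genes and 24.3% of the 136 genes with the pattern that have one.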

How the data were processed

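The deposited table holds whole-number read counts per gene, made by the authors without normalisation, for 25719 Ensembl identifiers and 20 libraries of sorted keratinocytes, 5 mice in each of 4 groups. STAR, featureCounts and the build GRCm38/mm10 are named in the submitters' processing notes, and their versions and settings are not given in the sources used here. SmartSeq II libraries were built from total RNA without stated molecular identifiers, per the labels' protocols, so counting error is the least error of a value. Library totals were 11.6 to 50.1 M counts, at which 3 counts correspond to 0.0599 to 0.259 CPM.

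The counts were fitted with edgeR 4.0.16 in R 4.3.3 (TMM, filterByExpr with a minimum count of 10 and a minimum total of 15, robust quasi-likelihood, 1 coefficient per group over all 20 libraries, two-sided tests, Benjamini-Hochberg over 12424 genes, called at an adjusted p under 0.05). The fit was tested on simulated data. The members and gene lists were chosen with earlier results of these data known, and no test was given for the contrasts on which the rule parts the libraries. Named beside the members were the 10 genes of most similar profile, up to 3 called genes of each list in each direction and contrast (or the 2 most abundant where none was called), other Arp2/3 subunits, Fosb and Rragd in the control comparison and the genes just outside the rule (chosen after their values were seen) and all paralogues past the filter. Correlations used 100000 permutations. Transcript features, coordinates and overlaps come from GENCODE M21, near-identical copies from blastn 2.17.0 (at least 95% identity over 100 bases), and promoters from RefSeq, which matched all 9 members. Alternatives were DESeq2 1.42.0 size factors and Wald test, other filters, fewer libraries, the sample number as a block, a satellite-like covariate and leaving out each library. The marker lists of melanocytes, erythroid cells, skeletal muscle and hair follicle summed to at most 35.0, 7.25, 7.68 and 26.8 CPM.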

Additional observations from a re-analysis of the deposited data

Results flagged for a closer look

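In 5 of the 36 sets of 5 libraries (9 genes in 4 groups), 1 library lay far from the other 4 relative to the range of its group, where chance gives about 1 in 20. In 3 of these the library was systemic cKO 2: Ykt6 was at 7.93 CPM beside 22.2 to 29.0 CPM in the other systemic cKO libraries, Gatd3a at 1.23 CPM beside 5.19 to 7.80 CPM, and Csrnp1 at 20.9 CPM beside 120 to 148 CPM. The others were Gatd3a in topical control 5, at 6.01 CPM beside 8.27 to 9.14 CPM, and D7Ertd443e in systemic control 4, at 2.30 CPM beside 3.36 to 3.64 CPM in the other systemic controls. The genes were selected on their values in all 20 libraries, so none of the 5 is independent of the selection.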

How the results depend on the processing

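Of the members' topical log2 fold changes, the direction turned with the sample number as a replicate block for Ykt6 (0.036) and Rraga (0.054). It also turned on leaving out single libraries for Csrnp1 (-0.21 to 0.16) and Mmp24 (-0.11 to 0.22). The DESeq2 Wald test called 1 member, D7Ertd443e, beside 42 of all genes. Leaving out each library left 0 members called, as in the full fit. For the 143 pathway genes in systemic cKO against systemic control, 3 were called, beside 235 of all genes. The count was 6 with the DESeq2 Wald test (563 of all genes), 5 with the replicate block (288) and 0 with only the libraries compared (35). It was 0 with the satellite-like covariate (0 of all genes). On leaving out each library it was 2 to 9, 9 being without systemic cKO 2 (787 of all genes). In the interaction, 0 were called, beside 31 of all genes, and 3 with DESeq2 (315 of all genes). With all genes that have a count 1 was called (40 of all genes), and with genes of at least 5 CPM on average 2 (49). Without single libraries 0 to 6 were called, 6 being without systemic cKO 2 (470 of all genes). Between systemic and topical controls the covariate left 0 of 37, and leaving out libraries gave 25 to 37. Over all genes 118 were called with the covariate and 2277 in the full fit. In cKO, leaving out libraries gave 13 to 21 of 21. Of the topical correlations, 0 passed without the 2 farthest libraries. Libraries of the same number did not deviate together: over 20 pairs the correlation of deviations ran from -0.38 to 0.57 with a median of 0.031, and 9 exceeded 0.1, so the number was taken as a name. At 5 libraries a group and 10 to 32 counts for Gatd3a and 13 to 24 for Mmp24 in systemic controls, counting error alone is large for these genes. The filter at 5 CPM removed D7Ertd443e and Mmp24, which then had no value.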
